A study of Danio rerio with 6 samples.

Results

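Transcripts that mark the differentiation of neurons and glia were followed in whole zebrafish embryos exposed to 11,12-EET, an epoxide that cytochrome P450 enzymes form from arachidonic acid. The genes were elavl3, elavl4, neurod1, isl1, gap43, snap25a and gfap, and a probe set was taken when the platform annotation gave it one of these symbols and no other. Of the 7 genes, 6 had such a probe set, and they gave 9 of the 15502 probe sets tested: 4 for elavl3 and 1 for each of the other 5. The annotation lists isl1 under its present name isl1a, with isl1 as a synonym in RefSeq, so its 2 probe sets fell outside the symbol rule and are described separately.

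Both groups were pools of wild-type AB embryos exposed from 24 to 36 h post fertilisation and dechorionated before RNA extraction at 36 h. The treated group received 5 µM 11,12-EET and the control group DMSO. Each group had 3 arrays labelled as biological replicates and 25 embryos were used per treatment group, with no statement of separate clutches, so p-values measure the spread between these pools. The values were 1-colour Affymetrix levels on a log2 scale. Array medians lay between 4.81 and 4.82, and the replicate 3 pools were set apart from the other 4 along a principal component with 44.0% of the variance of the brighter probe sets. The brighter probe sets are those not below the median level of 4.81, 7751 in number, and all 9 neural probe sets were among them. Because RNA came from whole embryos, fewer cells of a type and less RNA per cell cannot be told apart.

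In the zebrafish embryo neurons are born from dividing neuroepithelial and radial glial progenitors. Proneural and differentiation factors of the basic helix-loop-helix family push progenitors out of the cell cycle. The new neurons then switch on Hu RNA-binding proteins, extend axons and assemble synapses, while radial glia keep intermediate filaments such as Gfap. The genes described here sample those steps in turn: neurod1 and isl1 encode transcription factors, elavl3 and elavl4 the Hu proteins HuC and HuD, gap43 a growth cone protein, snap25a a component of the vesicle fusion machinery and gfap the glial filament.

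No difference between EET and DMSO was detected in any of them. With limma and Benjamini-Hochberg adjustment, 0 of the 9 probe sets passed an adjusted p under 0.05 over all probe sets, where 0% of all probe sets passed, and 0 of 9 passed among the brighter probe sets, where 0.0774% passed. With the replicate number as a block term 12 of the brighter probe sets passed in place of 6, and again 0 of the 9. None had an unadjusted p under 0.05 either, the smallest being 0.203, against 5.27% of all probe sets. In all 9 the levels of both groups overlapped. The groups were separated in 11.7% of all probe sets and 13% of the brighter ones. With 9 probe sets, 4 of them of elavl3, the count is too small to set these genes apart from those shares. At the brightest probe set of each gene, the EET mean was the higher in 3 genes and the lower in 3 (median log2 difference -0.01). It was the higher in 4520 and the lower in 4273 of all 8793 genes (median 0.01).

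**Figure D1:**
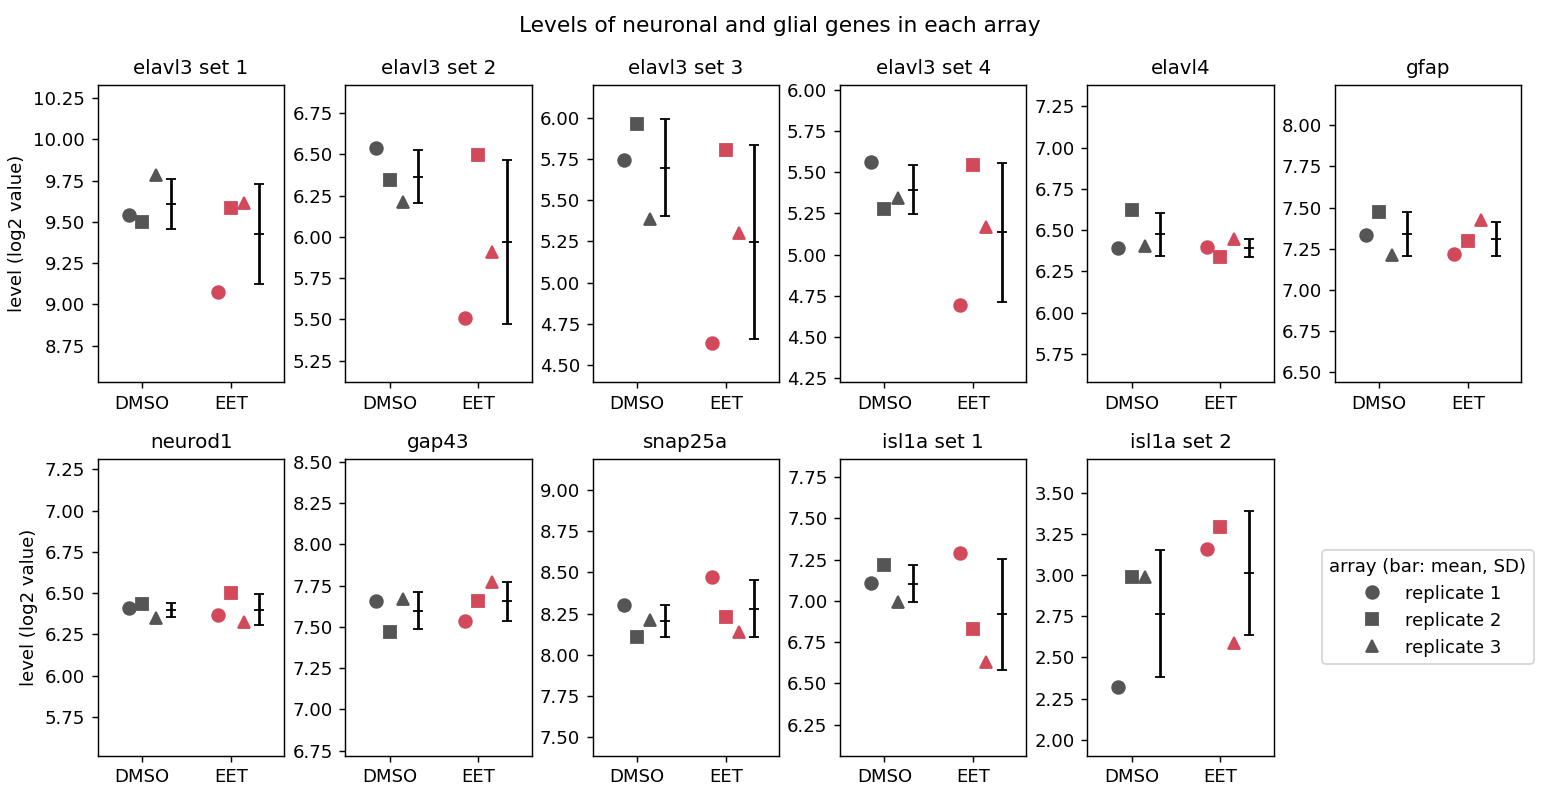
Level (log2 value) of each probe set in the 3 DMSO and 3 EET arrays, with marker shape giving the replicate number and bars the mean and SD. Each panel spans the same log2 range around its own centre. The 4 elavl3 probe sets share a low value in EET replicate 1, and the groups overlap in every panel.

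The differentiation factor neurod1, which acts in newborn neurons and in endocrine cells of the pancreas, had the smallest spread and the smallest difference. Its levels were 6.41, 6.43 and 6.35 in DMSO replicates 1 to 3 and 6.37, 6.50 and 6.33 in EET replicates 1 to 3. The EET arrays held both the highest and the lowest of the 6 values. The group means were 6.398 ± 0.044 (SD, n = 3) in DMSO and 6.400 ± 0.092 in EET. They differed by 0.0013 ± 0.098 on the log2 scale (SE, limma adjusted p = 1). Its 95% interval ran from a 0.844-fold to a 1.19-fold level in EET.

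Of its relatives on the array, which belong to the same family of factors, neurod6b separated the groups. Its levels were 5.32, 5.27 and 5.39 in DMSO and 5.78, 5.55 and 5.58 in EET, so that all EET values were the higher ones. The difference of 0.31 ± 0.11 (SE) did not pass (limma adjusted p = 0.930 over all and 0.675 among the brighter probe sets). The difference was -0.18 ± 0.21 for neurod4, which acts early in neuronal differentiation, and -0.08 ± 0.15 for neurod6a. For neurod2 it was 0.83 ± 0.77, with levels spread from 0.87 to 3.45 in DMSO alone.

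The LIM homeodomain factor gene isl1a, needed in motor and sensory neurons and also active in pancreas and heart, was read by 2 probe sets that pointed in opposite directions. The brighter one gave 7.11, 7.21 and 6.99 in DMSO and 7.29, 6.83 and 6.63 in EET. EET replicate 1 was the highest of the 6 arrays there and EET replicate 3 the lowest. The log2 difference was -0.19 ± 0.20 (SE, limma adjusted p = 0.946), and -0.37 without EET replicate 1. This probe set carries the Affymetrix suffix for probes that can match more than one transcript. The dimmer probe set, below the median level, gave 2.32, 2.99 and 2.99 in DMSO and 3.16, 3.29 and 2.59 in EET, and its groups differed by 0.25 ± 0.28 (adjusted p = 0.947). The related motor neuron gene isl2a differed by 0.08 ± 0.14, and by -0.099 without both replicate 3 arrays.

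HuC, the product of elavl3, appears early in postmitotic neurons of zebrafish, and its gene was the most variable of the 6 genes taken by symbol. The pooled SD within groups was 0.24 at the brightest elavl3 probe set, against 0.25 at the brighter isl1a probe set. The elavl3 probe sets are numbered here from 1 to 4 by mean level. Set 1 gave 9.54, 9.50 and 9.78 in DMSO and 9.08, 9.59 and 9.62 in EET. EET replicate 1 was the lowest of the 6 arrays, while EET replicates 2 and 3 lay within the range of DMSO. The difference was -0.18 ± 0.19 (SE, limma adjusted p = 0.946).

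The other 3 elavl3 probe sets repeated the low value of EET replicate 1. Set 2 gave 6.54, 6.35 and 6.21 in DMSO and 5.51, 6.50 and 5.91 in EET, and its groups differed by -0.40 ± 0.27 (SE, adjusted p = 0.932). Set 3 gave 5.74, 5.96 and 5.39 in DMSO and 4.63, 5.80 and 5.30 in EET, and its groups differed by -0.45 ± 0.34 (adjusted p = 0.932). Set 4 gave 5.56, 5.27 and 5.35 in DMSO and 4.70, 5.54 and 5.17 in EET, and its groups differed by -0.26 ± 0.24 (adjusted p = 0.943). In these 3 probe sets EET replicate 3 was also below every DMSO array, and EET replicate 2 lay above the DMSO mean.

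Relative to the DMSO mean, EET replicate 1 lay at -0.53, -0.86, -1.06 and -0.70 on the log2 scale in elavl3 sets 1 to 4. It was below the lowest of the other 5 arrays by 0.42, 0.40, 0.67 and 0.47. Among the 7751 brighter probe sets EET replicate 1 was the lowest array in 1468 (18.9%), and lowest by at least 0.4, a gap chosen after the elavl3 values were seen, in 59 (0.761%), the 4 of elavl3 included. Without EET replicate 1 the elavl3 differences were -0.0077, -0.16, -0.15 and -0.04. All 4 thus stayed below 0 and were smaller without that array.

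In the remaining 5 member genes EET replicate 1 was never the lowest array, and in snap25a it was the highest. Of the 168 other brighter genes on the neural lists described below, EET replicate 1 was lowest in 29 (17.3%). Over all 5318 genes at or above the median level, each at its brightest probe set, the share was 18.2%. EET replicate 1 was lowest by at least 0.4 in 1 of the 168, the proneural gene atoh1a. In atoh1a, singled out after its values were seen, it lay 0.52 below the next array. Over the 5318 genes it was lowest by at least 0.4 in 17 (0.32%), with elavl3 and atoh1a included. The same array had the largest gap between the 3' and 5' control probe sets of actin, 2.297 on the log2 scale against 1.74 to 2.01 in DMSO and 2.14 to 2.17 in the other EET arrays. For the GAPDH controls it was 1.27 in EET replicate 1 and 0.88 to 1.02 in the other 5 arrays. The actin gap was thus larger in every EET array than in every DMSO array, while the GAPDH gaps of both groups overlapped. Such a gap is a measure of RNA integrity and labelling. Its part in the elavl3 values, and in the other differences between EET and DMSO, was not tested.

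**Figure D2:**
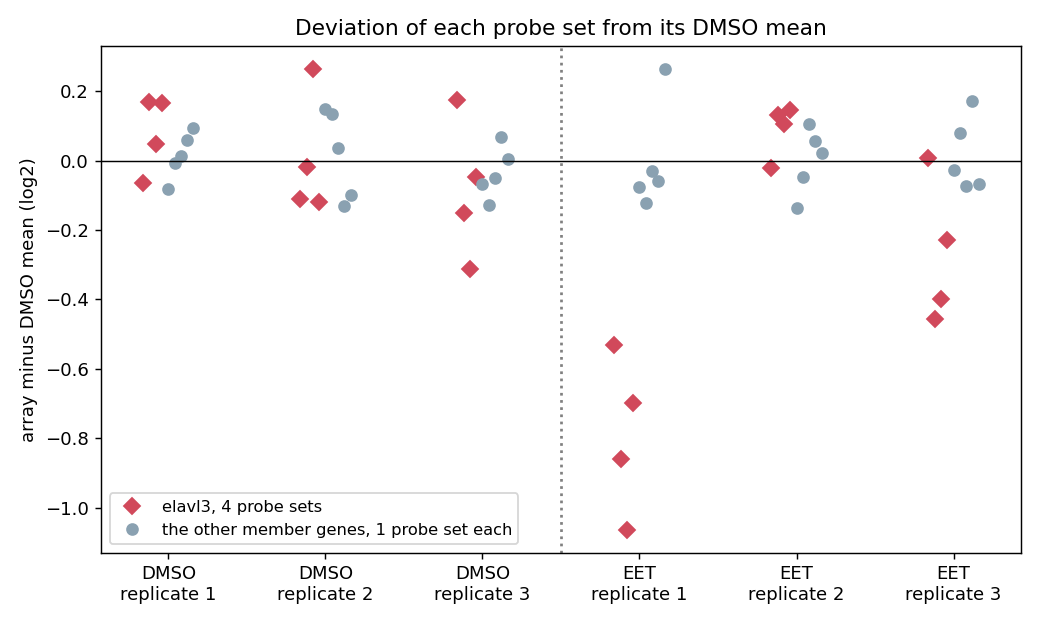
Deviation of each array from the DMSO mean of the same probe set (log2), for the 4 elavl3 probe sets and the 5 other genes. In EET replicate 1 the elavl3 probe sets lie between -1.06 and -0.53, while snap25a lies at 0.26.

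The 4 elavl3 probe sets followed each other across the 6 arrays, with Pearson correlations from 0.61 to 0.97 over 6 pairs. Between the 6 member genes at their brightest probe sets the correlation ran from -0.75 for elavl3 with snap25a to 0.74 for elavl4 with gfap, and 11 of 15 pairs were below 0. These correlations describe 6 arrays that share their normalisation and treatment groups.

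The HuD gene elavl4, whose product binds mRNA in differentiating neurons as HuC does, varied far less than elavl3. Its levels were 6.39, 6.62 and 6.41 in DMSO and 6.40, 6.34 and 6.45 in EET. DMSO replicate 2 stood highest, and the other 5 arrays lay close together. The difference was -0.08 ± 0.11 (SE, limma adjusted p = 0.956), and the 95% interval ran from a 0.783-fold to a 1.14-fold level. The pooled SD within groups was 0.099 for elavl4, lower than in most brighter probe sets, since 23.1% had a smaller one. For the elavl3 probe sets the pooled SD was 0.24 to 0.46, and 84.2% to 98.4% of the brighter probe sets had a smaller one. The widely expressed relatives elavl1a and elavl1b, which encode HuR-like proteins, differed by -0.01 ± 0.14 and 0.09 ± 0.10. The remaining relative elavl2 lay below the median level and differed by -0.26 ± 0.45.

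The growth cone gene gap43, which is switched on in neurons while they extend axons, gave 7.66, 7.47 and 7.67 in DMSO and 7.54, 7.65 and 7.77 in EET. DMSO replicate 2 was the lowest array and EET replicate 3 the highest. The difference was 0.06 ± 0.12 (SE, limma adjusted p = 0.972), with a 95% interval from a 0.850-fold to a 1.27-fold level.

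Snap25 is a SNARE protein of the nerve terminal membrane, where it takes part in the fusion of synaptic vesicles. The levels of snap25a were 8.30, 8.11 and 8.21 in DMSO and 8.47, 8.23 and 8.14 in EET. EET replicate 1 was the highest array, and the other EET arrays lay inside the DMSO range. The difference was 0.07 ± 0.13 (SE, limma adjusted p = 0.968), with an interval from a 0.841-fold to a 1.32-fold level. The paralogue snap25b gave -0.06 ± 0.15.

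The radial glial gene gfap encodes an intermediate filament protein. Its levels were 7.33, 7.47 and 7.21 in DMSO and 7.22, 7.29 and 7.42 in EET. The lowest and the highest value both came from DMSO arrays, and every EET array lay between them. The difference was -0.03 ± 0.12 (SE, limma adjusted p = 0.988), with an interval from a 0.798-fold to a 1.204-fold level. In the replicate 3 pair it was 0.21 and in the other 4 arrays -0.15. The related filament gene vim, expressed in neural progenitors and many other embryonic cells, differed by 0.09 ± 0.10 and lay above the DMSO mean in all 3 EET arrays.

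**Figure D3:**
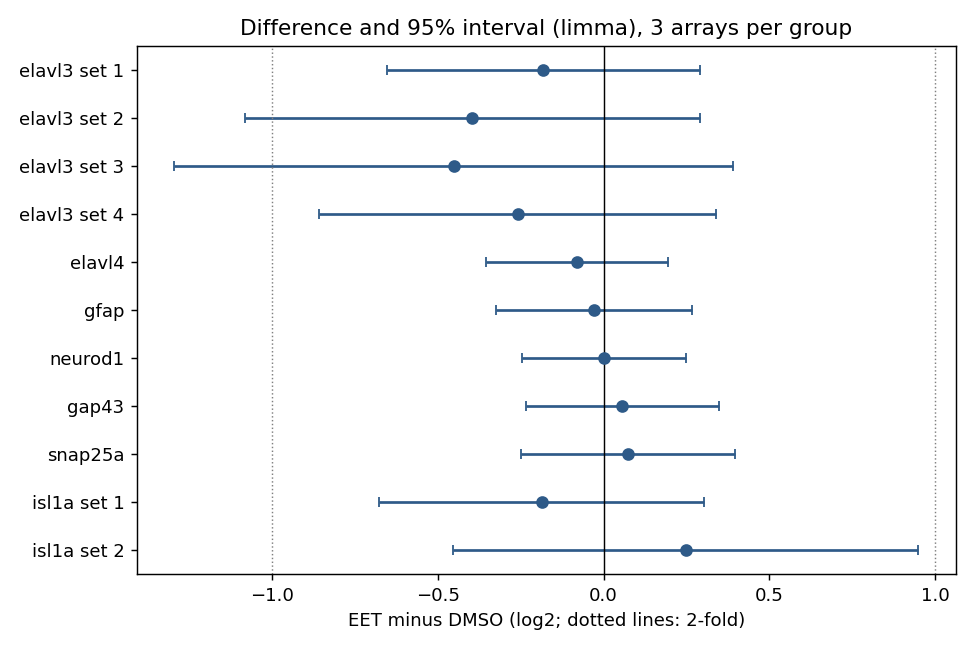
Difference between EET and DMSO (log2) for each probe set, with the 95% interval from limma and dotted lines at a 2-fold change. All intervals include 0. Those of elavl4, gfap, neurod1, gap43 and snap25a end between 0.783-fold and 1.32-fold, while elavl3 sets 2 and 3 reach down to 0.472-fold and 0.408-fold.

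The precision therefore differed between the genes. For elavl4, gfap, neurod1, gap43 and snap25a the intervals, which are not adjusted for the number of tests, left out a 2-fold change in either direction. The interval of elavl3 set 1 ran from 0.635-fold to 1.22-fold. For elavl3 sets 2 and 3 the lower ends were 0.472-fold and 0.408-fold, so a level lower by 2-fold was not left out there.

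Genes of the nervous system and of endocrine cells were taken from 7 lists, some of which share genes. The member genes and isl1a are among them. Of the 286 genes measured, EET lay above DMSO in 137 and below it in 149 (median -0.02 on the log2 scale), and limma called 0 over all probe sets and 0 among the brighter ones. An unadjusted p under 0.05 was reached by 11 (3.85%, against 5.27% of all probe sets), and both groups were separated in 22 (7.69%, against 11.7%). Both shares were below those over all probe sets. The units differ, since the 286 are genes at their brightest probe set and the comparison counts every probe set, dim ones included. The genes named next had the smallest p of their list in each direction, and none passed.

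Among 46 pan-neuronal and axon genes, 24 lay higher and 22 lower (median 0.01). The gene dpysl5a, of a family of cytoskeletal proteins in growing axons, gave 6.74, 6.78 and 6.89 in DMSO and 6.52, 6.46 and 6.60 in EET. Every EET array was below every DMSO array, with a difference of -0.28 ± 0.099 (SE, limma adjusted p = 0.930). The axonal adhesion gene l1cama differed by -2.39 ± 0.88, but its EET levels of -0.58, -0.53 and -0.83 are not known to be above background, and DMSO replicate 1 was at -0.24. On the higher side stmn2a, which encodes a microtubule regulator of growing axons, differed by 0.23 ± 0.15 and the neuronal adhesion gene cadm3 by 0.22 ± 0.13.

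Synaptic genes had the lowest list median, -0.10, with 11 higher and 24 lower of 35. Over the 22 brighter members, the mean level relative to the DMSO mean was 0.01, -0.03 and 0.02 in DMSO and 0.02, -0.09 and -0.09 in EET. EET replicate 1 thus lay inside the DMSO range and the other EET arrays below it. This order was not particular to synaptic genes, since the brighter pan-neuronal and neuron identity genes had it too. For neuron identity the means were 0.06, -0.05 and -0.01 in DMSO and 0.02, -0.10 and -0.09 in EET. The proneural, glial and neuroendocrine lists did not have it in full. In the 5 brighter retina genes all EET arrays lay above DMSO, at 0.06, 0.13 and 0.12 against at most 0.02. The presynaptic adhesion gene nrxn2a differed by -1.26 ± 0.38 at a low level, 2.52 ± 0.44 (SD, n = 3) in DMSO. The GABA synthesis gene gad2 gave 4.63, 4.56 and 4.67 in DMSO and 4.34, 4.53 and 3.92 in EET, a difference of -0.35 ± 0.18. On the higher side the SNARE-recycling gene nsfa differed by 0.13 ± 0.098 at the brighter of its 2 probe sets. The glycine receptor subunit gene glrba differed by 0.29 ± 0.19.

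Among 62 proneural and progenitor genes, 33 lay higher and 29 lower (median 0.02). Beside neurod6b the endocrine and neuronal factor neurog3 differed by 1.104 ± 0.56 near the lower end of the scale. The POU factor gene pou3f2b, active in neural progenitors, differed by -0.20 ± 0.14 and the forebrain homeobox gene emx3 by -0.33 ± 0.19. Of 52 genes of neuron identity, mostly transcription factors, 22 lay higher and 30 lower (median -0.06). The midbrain-hindbrain gene en2b gave 5.20, 5.34 and 5.48 in DMSO and 5.66, 5.79 and 5.71 in EET, a difference of 0.38 ± 0.11 (limma adjusted p = 0.930). The gene gata2a, which acts in spinal interneurons and in blood, gave 6.51, 6.46 and 6.40 in DMSO and 6.12, 6.13 and 6.01 in EET, differing by -0.37 ± 0.094 (limma adjusted p = 0.878). All EET arrays lay above DMSO for en2b and below it for gata2a. The interneuron progenitor gene dbx1b differed by -0.51 ± 0.21, and tbx20, known from heart and motor neurons, by 1.998 ± 0.79 with a DMSO mean below 0.

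Among 41 glial and myelin genes, 20 lay higher and 21 lower (median -0.00081). The calcium-binding protein gene s100b, a glial marker, gave 3.18, 2.31 and 2.47 in DMSO and 3.61, 3.36 and 3.56 in EET. It was higher in every EET array, by 0.85 ± 0.25 (SE, limma adjusted p = 0.930), at a level below the median of all probe sets. The radial glial fatty acid binding gene fabp7a gave 8.90, 9.05 and 9.18 in DMSO and 9.33, 9.14 and 9.40 in EET, a difference of 0.24 ± 0.13. On the lower side gpm6bb, of the myelin proteolipid family, differed by -0.25 ± 0.15 and the hindbrain and Schwann cell factor egr2b by -0.37 ± 0.21.

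Among 33 retina genes, 18 lay higher and 15 lower (median 0.0023), and only 5 of them reached the median level. The visual cycle genes rpe65a and rlbp1a differed by 0.30 ± 0.15 and -0.51 ± 0.32. The homeobox gene six7 differed by -1.05 ± 0.34 and the photoreceptor calcium sensor gene rcvrn3 by 1.22 ± 0.81. Both six7 and rcvrn3 were near the lower end of the scale, with mean levels of 0.23 and 1.31, and rpe65a and rlbp1a were also below the median level. For six7 and rpe65a the brighter of 2 probe sets is given. Among 27 neuroendocrine and islet genes, 13 lay higher and 14 lower (median -0.0063). The somatostatin gene sst2 differed by 0.26 ± 0.11, with all EET arrays above DMSO, and the prohormone convertase inhibitor gene pcsk1nl by -0.24 ± 0.094, with all below. The peptide genes npy and pomca, both near the lower end of the scale, differed by 2.33 ± 1.01 and -0.61 ± 0.32.

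**Figure D4:**
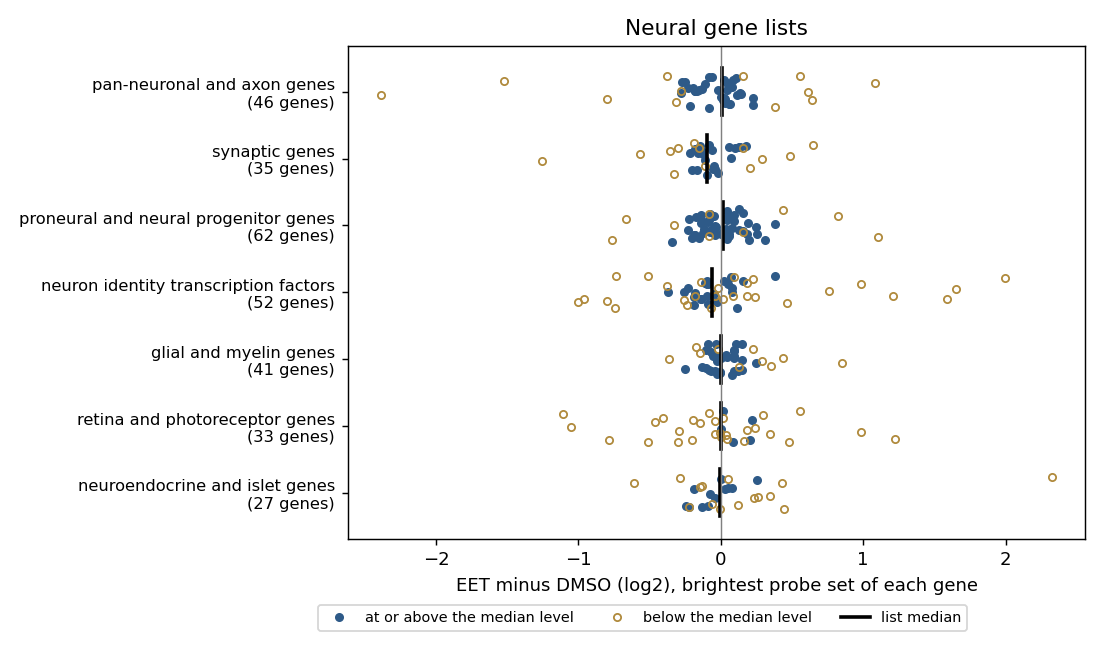
Difference between EET and DMSO (log2) for each gene of the 7 neural lists at its brightest probe set, split at the median level of all probe sets, with the list median as a bar. Medians lie between -0.10 and 0.02, and the wide differences belong to dim genes.

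Lists of other tissues gave the setting for these values. Median differences were -0.06 for 24 skeletal muscle genes, -0.0057 for 13 red blood cell genes, -0.02 for 22 epidermis genes, 0.0081 for 16 liver and yolk genes and 0.0042 for 6 lens genes. The mean level of the epidermis list was 8.65 to 8.69 in the DMSO arrays and 8.51 to 8.53 in the EET arrays, and that of the skeletal muscle list 10.79 to 10.88 and 10.75 to 10.78. The mean level of the pan-neuronal list ran from 5.78 to 5.86 over the DMSO arrays and from 5.63 to 5.85 over the EET arrays, and that of the glial list 6.84 to 6.99 and 6.92 to 6.99. The ranges of both groups overlapped for the neuronal and the glial list and did not for epidermis and muscle. The separation of list means was not tested, and single probe sets separated the groups in 11.7% of all cases. The means also take in dim genes: 34 of 46 pan-neuronal and 22 of 24 muscle genes reached the median level. Overlap was not particular to neural lists. The red blood cell list had 7.71 to 7.88 in DMSO and 7.67 to 7.81 in EET. The liver and yolk list had 7.81 to 8.09 and 7.73 to 7.90, and the lens list 4.16 to 4.58 and 4.19 to 4.43. In the epidermis list 2 actinodin genes of the fin fold were far below the list median, and2 at -1.38, the only member called among the brighter probe sets, and and1 at -0.72. Without them, left out after their values were seen, the mean level of the other 20 genes was 8.61 to 8.67 in the DMSO arrays and 8.55 to 8.58 in the EET arrays. The part of the other tissues in the neural values was not tested.

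The genes whose profile over the 6 arrays was most like the mean standardised profile of the 6 member genes were eif2b3, chmp4bb, pdia6, yars1 and brd3b, with Pearson correlations of 0.987, 0.981, 0.968, 0.966 and 0.963. In each of these 5 EET replicate 1 was the lowest array. They were picked for the highest correlations over 6 arrays, so the high values and the low array follow from the selection. The mean profile itself was -0.47 in EET replicate 1 and -0.14 to 0.21 in the other 5 arrays. Of the 6 member genes only elavl3 had its lowest value in EET replicate 1, so the likeness is not to each member.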

How the data were processed

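Per the labels' protocols, biotin-labelled cRNA from total RNA was hybridised to Affymetrix arrays. The authors deposited log2 values, 1 per probe set and array; their background correction, summarisation and scaling are not given in the sources used here. The base was read from the values: the highest, 13.6, would as a natural log be 829979, above the 65535 a 16-bit scanner records. No detection calls were used.

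After removal of 115 controls, EET was compared with DMSO over 15502 probe sets with limma 3.58.1 in R 4.3.3 (lmFit, eBayes, 2-sided, no covariates), with Benjamini-Hochberg adjustment and calls at 0.05. The same fit was run on the 7751 probe sets at or above the median level. The brightest probe set stood for a gene. Of the probe sets 10795 had 1 symbol, 135 several and 4572 none, and 10711 matched a RefSeq gene (GRCz12tu). The annotation names no build, so no positions are given.

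The members, lists and tests were chosen with earlier results of these data known. Genes named from the lists are the 2 with the smallest p in each direction per list, with family relatives and the 5 most similar profiles.

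On simulated data for this comparison, 5 runs had 200 changed probe sets each, some changed 2-fold and the others 4-fold. Over the 7751 brighter probe sets 83.8% of 2-fold changes were recovered, and over all 15502 33.6%. For 4-fold changes these shares were 98.4% and 66.4%. Of the calls, taken over both sizes of change, 5.67% and 7.24% were false. The simulated noise was independent between probe sets and arrays and had no shared replicate 3 component. The shares also depend on the number of changed probe sets, so they may not hold for the real arrays.

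Alternatives covered normalisation, dim probe sets, the log scale with an offset of 32, eBayes settings, array weights, blocks, left-out arrays, the threshold and the mean of probe sets.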

Additional observations from a re-analysis of the deposited data

How the results depend on the processing

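No member was called under any of the 18 alternatives run over all probe sets, including isl1a as a member, or of the 15 run among the brighter ones; isl1a and the brighter count were added after the data were seen. Over all probe sets 0 were called, against 1 with median centring, 1 with array weights, 1 at an adjusted p under 0.10, 2 with log2(2^value + 32), 3 with trend and robust, and 6 without probe sets below the median level. Among the brighter probe sets 6 were called, against 8 with log2(2^value + 32), 10 with trend and robust and 12 with array weights. The brighter count was 12 with the replicate block, 12 with a batch term for replicate 3, and 0 to 6 with 1 array left out. The replicate block called 0 member probe sets and 0 over all probe sets. Whether the numbers pair the arrays is not settled. Deviations from the group means correlated between arrays of the same number at 0.042, 0.056 and 0.148 when every probe set was used. Within the brighter set these values were 0.177, 0.239 and 0.554, but there DMSO replicate 1 correlated best with EET replicate 2 (0.296) and DMSO replicate 2 with EET replicate 1 (0.267). The fit without the block is therefore given with the blocked counts beside it. The member median of -0.01 was -0.063 without both replicate 3 arrays and -0.058 to 0.0068 with 1 array left out.

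With 1 array left out the difference lay between -0.094 and 0.038 for gfap, -0.0078 and 0.12 for gap43, -0.050 and 0.038 for neurod1, -0.022 and 0.14 for snap25a, -0.13 and 0.063 for elavl1a, -0.56 and 0.24 for elavl2, -0.010 and 0.15 for isl2a, -0.15 and 0.043 for snap25b, -0.14 and 0.058 for eif2b3, -0.12 and 0.087 for chmp4bb, -0.17 and 0.11 for pdia6, -0.11 and 0.080 for yars1, and -0.054 and 0.062 for brd3b, so the sign of each turned. Without both replicate 3 arrays the sign turned for elavl1a (0.067), isl2a (-0.099) and neurod6a (0.0064), and with array weights for neurod6a (0.0022). The elavl3 difference stayed below 0 in every alternative. At its brightest probe set it lay between -0.28 and -0.0077 with 1 array left out, the latter without EET replicate 1. With the mean of its probe sets in place of the brightest it was -0.32. The cause of these shifts was not tested. Dim probe sets were the least precise, with a median SD within groups of 0.23 over all against 0.15 among the brighter ones.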
